A study of Mus musculus with 6 samples.

Results

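The genes named as Cd44, galectins and mesenchymal glioma matrix were followed: Cd44, Lgals1, Lgals3, Chil1, Tnc, Spp1, Fn1, Thbs1, Sparc and Has2. They were chosen by symbol and make up 10 of the 54446 genes in the files. Expression was measured by droplet-based 5' single-cell RNA-seq in 6 libraries of cultured mouse glioma cells, with no treatment, gene deletion or time course in the labels. GL261, an established mouse glioma line labelled as glioblastoma cells, was grown in differentiation medium with serum (FCS) and gave 2 libraries. GL261-GSCs, labelled glioblastoma stem cells and derived from GL261, were grown in defined GSC medium and gave 4 libraries. Both groups are derivatives of 1 line in culture, the medium and the label change together, and nothing in the labels says that replicates were separate cultures. P-values therefore measure only the spread between these libraries, which may be technical.

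CD44 is a cell-surface receptor for hyaluronan, the sugar polymer that HAS2 makes, and is widely used as a marker of the mesenchymal state of glioblastoma. Galectin-1 and galectin-3 bind galactose-containing sugars on cell surfaces and matrix. Fibronectin builds the fibrillar matrix that integrins grip, while thrombospondin-1, tenascin-C, SPARC and osteopontin are matricellular proteins, which tune how cells adhere to the matrix more than they build it. Chil1 is the older symbol of Chi3l1, whose product YKL-40 is a further mesenchymal glioblastoma marker.

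The promoters of the 3 genes that fell and have a RefSeq entry, and of Tnc, the member with the widest range among the GL261-GSCs libraries, are shown so that their sequence makeup can be read beside their levels. Each window runs 5′ to 3′ from 250 bases before to 50 bases after the transcription start, on build GRCm38.p6, and capitals mark CpG dinucleotides.
Cd44 promoter, chr2:102901616-102901915, strand minus: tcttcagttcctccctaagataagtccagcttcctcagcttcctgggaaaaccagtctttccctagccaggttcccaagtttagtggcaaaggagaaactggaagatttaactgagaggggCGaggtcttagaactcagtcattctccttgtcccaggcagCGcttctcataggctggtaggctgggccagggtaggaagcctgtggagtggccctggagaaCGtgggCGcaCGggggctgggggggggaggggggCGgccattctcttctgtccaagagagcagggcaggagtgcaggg
Lgals3 promoter, chr14:47373610-47373909, strand plus: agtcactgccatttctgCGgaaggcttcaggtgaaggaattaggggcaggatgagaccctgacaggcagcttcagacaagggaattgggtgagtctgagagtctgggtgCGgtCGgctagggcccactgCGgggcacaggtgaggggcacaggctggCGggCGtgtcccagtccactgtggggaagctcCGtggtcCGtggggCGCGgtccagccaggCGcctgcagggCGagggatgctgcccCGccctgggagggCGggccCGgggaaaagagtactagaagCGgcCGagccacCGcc
Sparc promoter, chr11:55420031-55420330, strand minus: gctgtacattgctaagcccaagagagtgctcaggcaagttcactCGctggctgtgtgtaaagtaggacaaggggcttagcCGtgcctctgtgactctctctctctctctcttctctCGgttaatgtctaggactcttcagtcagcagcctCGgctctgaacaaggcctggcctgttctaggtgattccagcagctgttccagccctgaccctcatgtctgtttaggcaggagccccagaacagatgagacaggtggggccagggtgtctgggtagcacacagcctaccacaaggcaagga
Tnc promoter, chr4:64046966-64047265, strand minus: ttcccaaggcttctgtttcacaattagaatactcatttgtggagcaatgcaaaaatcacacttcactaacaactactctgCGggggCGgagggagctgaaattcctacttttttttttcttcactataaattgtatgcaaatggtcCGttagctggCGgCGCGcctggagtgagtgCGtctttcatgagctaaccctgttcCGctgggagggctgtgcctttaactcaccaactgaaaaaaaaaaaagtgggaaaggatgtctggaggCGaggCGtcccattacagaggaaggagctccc

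The Cd44 window held 6 CpG, that of Lgals3 18, that of Sparc 4 and that of Tnc 10, against a median of 7 over 32851 RefSeq windows (quartiles 3 and 20). A second Tnc window, not shown, held 16. The 3 genes that fell therefore did not share a CpG-rich or a CpG-poor start. The AP-1 letters TGANTCA, read on both strands, were in none of the 8 windows of the 6 members with an entry, and were in 7.81% of all windows. The TEAD letters GGAATG were likewise in none of them, and in 14.7% of all windows. The TATA letters TATAAA were in both windows of Tnc and in 1 of the 2 of Spp1, and in 13.6% of all windows. The Tnc windows overlap and hold the same match, at -126 and -205 bases from their respective starts. That of Spp1 lies at -211. A match is a description of letters, and the absence of these letters from a short window says nothing about a factor. Fn1, Thbs1, Has2 and Lgals1 had no entry. The Lgals3 and Sparc windows lie inside the GENCODE M21 gene spans given with each gene.

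Called cells numbered 4264 to 7275 per library, with 33320530 to 79472306 UMIs summed over the cells of a library and median depths of 6670 to 15478 UMIs per cell. GL261-GSCs replicate 4 was the shallowest. GL261-GSCs replicates 1 and 2 stood apart from replicates 3 and 4 in several members, so each member whose call or size turned on them is given with and without each pair. A fit without a pair leaves out the spread between the pairs, so its p-value measures only the spread among the libraries kept. Any 2 libraries shared 32 to 59 called barcodes. All 4 markers of the line (Nes, Vim, Sox2, Olig2) had UMIs in every library, at a summed level of 15304 and 16548 CPM in GL261 and 5426 to 6168 in GL261-GSCs. Vim made up most of the GL261 sum, at 14053 and 15215 CPM. Olig2 had only 62 and 1 UMIs in GL261 replicates 1 and 2, and stood at 401 to 787 CPM in GL261-GSCs. By edgeR, Nes and Vim were called lower in GL261-GSCs, and Sox2 and Olig2 higher. Of the 10 microglia and macrophage markers, 3 to 7 had a UMI in a library, their summed level was 9.73 to 23.2 CPM, and C1qa was at 0 in all 6. Of 6 pericyte and fibroblast markers, 3 to 6 had a UMI, and their summed level was 416 and 487 CPM in GL261 against 83.2 to 226 in GL261-GSCs. Summed levels of 7 oligodendrocyte-lineage markers were 512 and 631 CPM in GL261 against 1387 to 2352 in GL261-GSCs, those of 6 astrocyte markers 46.1 and 48.0 against 112 to 188, and those of 6 neuronal markers 0.696 and 0.904 against 2.06 to 79.4. Those of 6 endothelial markers were 36.3 and 48.6 against 59.3 to 86.4. All 7 oligodendrocyte-lineage markers and 3 to 5 of the others of each list had a UMI in a library, and Aqp4, Rbfox3 and Cldn5 were at 0 in all 6. Of the macrophage markers Csf1r (means of 12.8 CPM in GL261 and 0.227 in GL261-GSCs) was called lower by edgeR and Cd68 was not called. Of the pericyte and fibroblast markers Col1a1 (264 and 17.4 CPM) and Pdgfrb (4.99 and 0.116) were called lower. Cspg4 (182 and 127 CPM) and Dcn, higher in the mean of GL261-GSCs (0.0593 and 0.242), were not called. Lum and Rgs5 were not tested, and Rgs5 was seen only in GL261-GSCs replicates 1 and 2 (13 and 8 UMIs). The members Fn1, Thbs1 and Sparc, which are not on this list, were also called lower. The other lists held genes called in both directions or a single called gene. Among the astrocyte markers Gfap (means of 1.29 CPM in GL261 and 0.0175 in GL261-GSCs) and Aldh1l1 (6.80 and 0.00692) were called lower by edgeR, Slc1a3 (0.0815 and 74.8) was called higher, and Gja1 (38.9 and 77.3) was not called. The neuronal sum was nearly all Syt1, at 51.6 of 52.6 CPM in GL261-GSCs replicate 3. Of the oligodendrocyte-lineage markers 5 were called higher, Mbp was called lower and Sox10 was not called, and of the endothelial markers Flt1 was called higher and Cdh5 lower. The part of these lists in the results was not tested.

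Of the 10 members, 9 had enough UMIs to be tested and 5 were lower in GL261-GSCs: Cd44, Lgals3, Fn1, Thbs1 and Sparc. None was called higher. Over all 18439 genes tested, 29.9% were called in either direction, 14.1% lower and 15.8% higher. In 7 of the 9 members GL261 and GL261-GSCs libraries did not overlap, against 56.7% of all genes tested. The median log2 fold change of the 9 members, GL261-GSCs over GL261, was -1.20, beside 0.04 over all genes tested. Levels are CPM, the UMIs of a gene per 1e6 UMIs of the library, scaled between libraries by TMM, and tests are edgeR quasi-likelihood tests with Benjamini-Hochberg adjustment over all genes, called at an adjusted p under 0.05. In summed RNA, fewer expressing cells and less RNA per cell cannot be told apart.

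**Figure D1:**
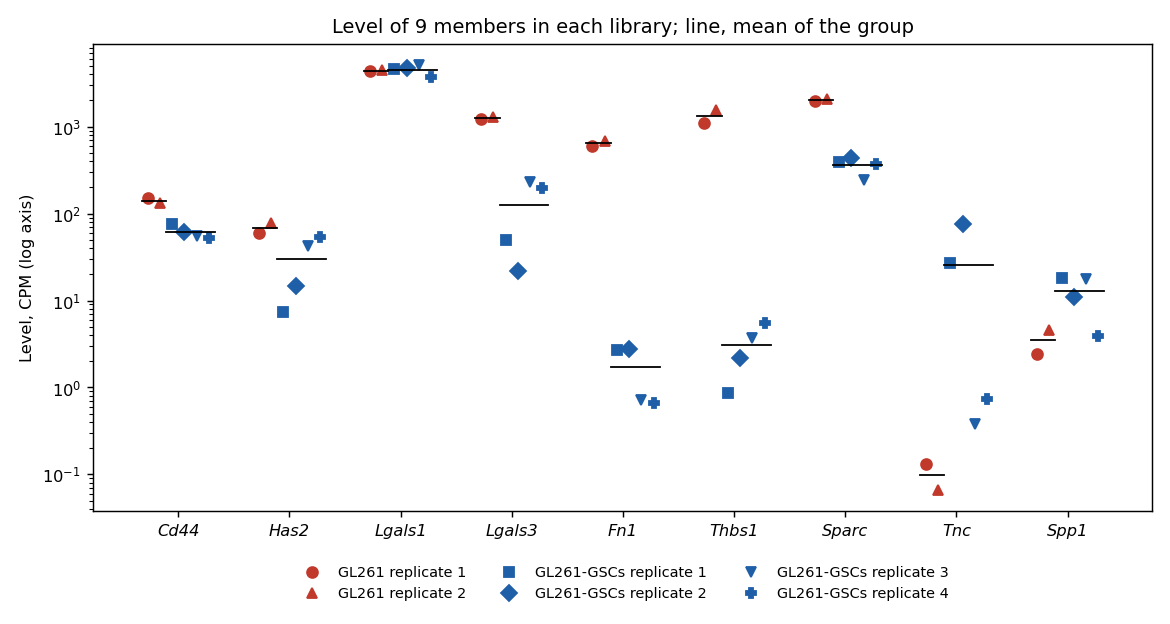
Level of 9 members in each library, in TMM-scaled CPM on a log axis, with red points for GL261 and blue for GL261-GSCs, and a line at the mean of each group. Fn1 and Thbs1 sit at 601 CPM or above in both GL261 libraries and at 5.49 or below in all 4 GL261-GSCs libraries, Lgals1 is level, and Tnc, Lgals3 and Has2 spread widely among the GL261-GSCs.

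The matrix proteins fibronectin and thrombospondin-1 showed the widest difference. Fn1 (ENSMUSG00000026193.15, GRCm38 chr1:71585520-71653200, minus strand) stood at 601 and 682 CPM in the GL261 libraries, and at 2.71, 2.75, 0.725 and 0.659 in GL261-GSCs replicates 1 to 4. Every GL261-GSCs library lay far below both GL261 libraries, with no overlap. The means were 642 ± 56.9 (SD, n = 2) and 1.71 ± 1.18 (SD, n = 4), and Fn1 fell by 8.52 on the log2 scale (SE 0.66, edgeR adjusted p = 0.000312), a fold of 368. Within the GL261-GSCs, replicates 1 and 2 averaged 2.73 CPM and replicates 3 and 4 averaged 0.692, from 460 UMIs over all 4 libraries. Without replicates 1 and 2 the log2 fold change was -9.81, and without replicates 3 and 4 it was -7.87.

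Thbs1 (ENSMUSG00000040152.8, chr2:118111876-118127133, plus strand) encodes thrombospondin-1, an adhesive glycoprotein that also activates latent TGF-β. It stood at 1106 and 1533 CPM in GL261 and at 0.864, 2.19, 3.69 and 5.49 in GL261-GSCs replicates 1 to 4. The groups were far apart, and the order among the GL261-GSCs was the opposite of that of Fn1, with replicates 3 and 4 (mean 4.59) above replicates 1 and 2 (mean 1.53). The means were 1320 ± 302 (SD, n = 2) and 3.06 ± 1.99 (SD, n = 4). Thbs1 fell by 8.77 on the log2 scale (SE 0.69, edgeR adjusted p = 0.000334), by 8.17 without replicates 1 and 2 and by 9.73 without replicates 3 and 4.

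SPARC binds collagen and counters cell spreading. Sparc (ENSMUSG00000018593.13, chr11:55394500-55423183, minus strand) stood at 1972 and 2058 CPM in GL261 and at 394, 436, 246 and 369 in GL261-GSCs replicates 1 to 4. The groups did not overlap, and the 4 GL261-GSCs libraries lay within a 1.77-fold range. The means were 2015 ± 60.9 (SD, n = 2) and 361 ± 81.6 (SD, n = 4), and Sparc fell by 2.48 on the log2 scale (SE 0.22, edgeR adjusted p = 0.000513).

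Cd44 (ENSMUSG00000005087.17, chr2:102811141-102901665, minus strand) showed the smallest of the 5 called changes. It stood at 149 and 132 CPM in GL261 and at 76.7, 61.2, 54.9 and 53.0 in GL261-GSCs replicates 1 to 4. Both GL261 libraries lay above all 4 GL261-GSCs libraries, which kept within a 1.45-fold range. The means were 141 ± 12.6 (SD, n = 2) and 61.5 ± 10.8 (SD, n = 4), and Cd44 fell by 1.19 on the log2 scale (SE 0.17, edgeR adjusted p = 0.00325), a fold of 2.29. The values count all Cd44 transcripts together, so its splice variants were not separated.

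The hyaluronan synthase Has2 (ENSMUSG00000022367.7, chr15:56665627-56694539, minus strand) stood at 59.1 and 76.95 CPM in GL261 and at 7.46, 14.6, 42.8 and 53.8 in GL261-GSCs replicates 1 to 4. The groups did not overlap, but replicates 3 and 4 came close to GL261 while replicates 1 and 2 lay well below. The means were 68.0 ± 12.6 (SD, n = 2) and 29.7 ± 22.2 (SD, n = 4), and the difference of -1.20 on the log2 scale (SE 0.70) did not pass the test (edgeR adjusted p = 0.237). With replicates 1 and 2 left out the edgeR value was -0.47 (adjusted p = 0.0421), and with replicates 3 and 4 left out it was -2.62 (adjusted p = 0.00534), both lower in GL261-GSCs. Both p-values leave out the spread between the pairs, and the fit without replicates 1 and 2 called 9881 of 17995 genes.

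The galectins parted. Lgals1 (ENSMUSG00000068220.6, chr15:78926725-78930465, plus strand) stood at 4313 and 4438 CPM in GL261 and at 4568, 4674, 5081 and 3741 in GL261-GSCs replicates 1 to 4. The groups overlapped, and the GL261-GSCs libraries lay on both sides of the GL261 ones. The means were 4375 ± 88.5 (SD, n = 2) and 4516 ± 562 (SD, n = 4), a difference of 0.05 on the log2 scale (SE 0.17, edgeR adjusted p = 0.858). Its sign was not the same under every setting: it was -0.28 in cells with no UMI of the G2/M genes.

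Lgals3 (ENSMUSG00000050335.17, chr14:47367751-47386160, plus strand), which encodes the galectin that forms multivalent lattices and also acts inside the cell, stood at 1235 and 1281 CPM in GL261 and at 49.1, 21.9, 229 and 199 in GL261-GSCs replicates 1 to 4. All GL261-GSCs libraries lay below GL261, and replicates 3 and 4 (mean 214) lay above replicates 1 and 2 (mean 35.5). The means were 1258 ± 32.8 (SD, n = 2) and 125 ± 104 (SD, n = 4), and Lgals3 fell by 3.33 on the log2 scale (SE 0.84, edgeR adjusted p = 0.0250). The call was lost in edgeR without GL261 replicate 1 (-3.37, adjusted p = 0.0987) and without GL261 replicate 2 (-3.31, adjusted p = 0.109). Lgals3 was lower by edgeR both without GL261-GSCs replicates 1 and 2 (-2.53, adjusted p = 1.16e-05) and without replicates 3 and 4 (-5.14, adjusted p = 0.00154).

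Tnc and Spp1 were the members with fitted values above 0 by more than their SE, and neither passed the test. Tnc (ENSMUSG00000028364.15, chr4:63959785-64047015, minus strand), a large anti-adhesive glycoprotein of stem cell niches and glioma matrix, stood at 0.133 and 0.0663 CPM in GL261, from 9 and 4 UMIs. In GL261-GSCs replicates 1 to 4 it stood at 26.8, 75.6, 0.375 and 0.742 CPM, from 1766, 5476, 30 and 27 UMIs. The groups did not overlap, yet replicates 3 and 4 lay nearer to GL261 than to the other GL261-GSCs, and the highest GL261-GSCs library was 201-fold above the lowest. The means were 0.0998 ± 0.0474 (SD, n = 2) and 25.9 ± 35.4 (SD, n = 4), with a log2 difference of 7.97 (SE 2.83, edgeR adjusted p = 0.0749). Set against GL261 alone, replicates 3 and 4 gave 2.39 (edgeR adjusted p = 0.00778) and replicates 1 and 2 gave 8.96 (adjusted p = 0.00176). These p-values leave out the spread between the pairs. DESeq2 called Tnc on all 6 libraries (8.01, adjusted p = 0.000262).

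Spp1 (ENSMUSG00000029304.14, chr5:104435118-104441050, plus strand) encodes osteopontin, a secreted ligand of integrins and of CD44. It stood at 2.41 and 4.54 CPM in GL261 and at 18.3, 10.999, 17.8 and 3.96 in GL261-GSCs replicates 1 to 4. GL261-GSCs replicate 4 lay between the GL261 libraries, so the groups overlapped. The means were 3.48 ± 1.502 (SD, n = 2) and 12.8 ± 6.76 (SD, n = 4), with a log2 difference of 1.88 (SE 0.65, edgeR adjusted p = 0.0691). Without GL261-GSCs replicate 4 it was 2.20 (edgeR adjusted p = 0.0102), and DESeq2 called it on all libraries (1.87, adjusted p = 0.00494).

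Chil1 (ENSMUSG00000064246.10, chr1:134182176-134190181, plus strand) had 0 UMIs in both GL261 libraries and 1, 0, 0 and 2 in GL261-GSCs replicates 1 to 4. It was therefore at the floor of 3 UMIs or below in both groups, was not tested and has no fold change.

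**Figure D2:**
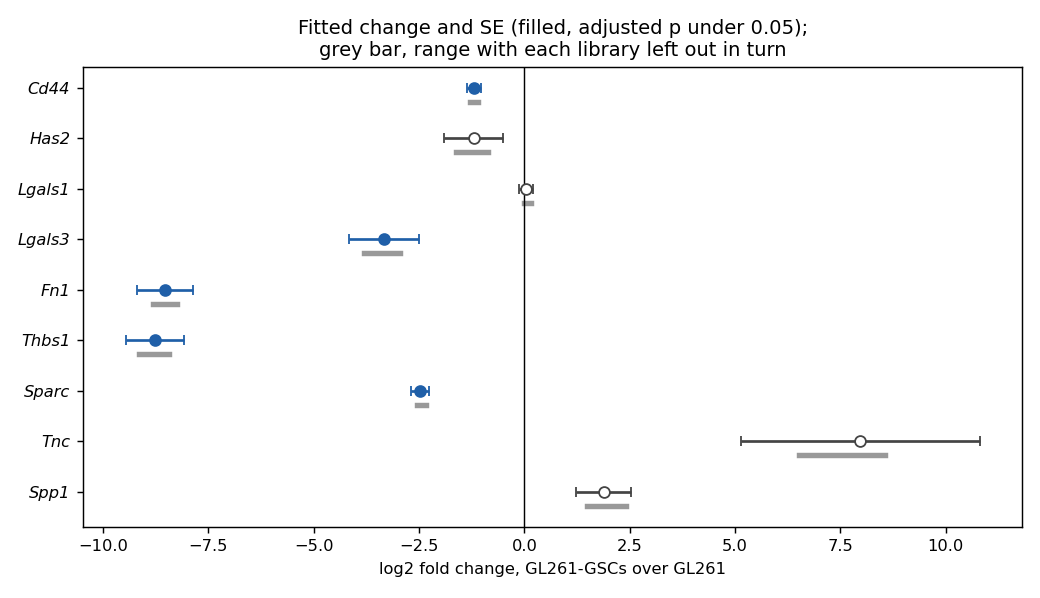
Fitted log2 fold change of GL261-GSCs over GL261 for 9 members with its SE, filled where the edgeR adjusted p was under 0.05, and a grey bar for the range with each library left out in turn. Thbs1 and Fn1 lie lowest (-8.77 and -8.52), Lgals3, Sparc, Has2 and Cd44 follow, Lgals1 lies at 0, and the bars of Tnc and Spp1 stay above 0.

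The share of cells with a UMI was compared after every called cell was thinned to 2000 UMIs. The share that free RNA alone would give is set beside it, from barcodes with 100 to fewer than 1000 UMIs. The source of the RNA in these barcodes was not tested. No cell type known to lack the members was available as a reference, so a share at or below that line does not show which cells express a gene. Intervals cover counting error only.

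Fn1 was found in 53.1% and 58.1% of cells in GL261, where free RNA would give 35.1% and 28.7%. In GL261-GSCs replicates 1 to 4 it was in 0.610%, 0.630%, 0.151% and 0.0665% of cells, with free RNA at 0.205%, 0.375%, 0.0820% and 0.0974%. At this depth Fn1 was thus detected in most GL261 cells and in a small share of GL261-GSCs cells. This share does not tell fewer expressing cells from less RNA per cell. In GL261-GSCs replicates 3 and 4 the interval of the Fn1 share held the free RNA value. Thbs1 was in 58.7% and 71.9% of GL261 cells (free RNA 63.7% and 64.04%) and in 0.188%, 0.545%, 0.921% and 1.31% of the GL261-GSCs cells, with free RNA at 0.0792%, 0.270%, 0.508% and 1.07%. In GL261 replicate 1 the Thbs1 share was below that of free RNA, although its summed level in cells was 2.07 times that in the free RNA.

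Sparc was in 93.2% and 93.7% of GL261 cells and in 52.7%, 55.4%, 38.1% and 50.5% of the GL261-GSCs cells, with free RNA at 97.5%, 92.4%, 40.3%, 47.0%, 45.2% and 49.8% in the same order. Cd44 was in 22.6% and 20.8% against 14.7%, 11.8%, 11.4% and 12.2%, with free RNA at 20.3%, 12.2%, 9.61%, 8.93%, 11.3% and 9.78%. Cd44 thus stood above free RNA in 5 libraries and level with it in GL261-GSCs replicate 3. Lgals1 was in 97.9% to 99.1% of cells in all 6 libraries, each below the free RNA value.

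Lgals3 was in 76.5% and 81.5% of GL261 cells and in 6.59%, 3.05%, 20.4% and 21.1% of the GL261-GSCs cells, below the free RNA value in every library (92.5%, 94.3%, 12.1%, 7.01%, 39.98% and 37.7%). Its summed level in cells was 0.624 to 0.920 times that in free RNA. Has2 was in 10.6% and 13.5% against 1.69%, 3.54%, 10.1% and 13.7%, with free RNA at 8.73%, 7.62%, 1.33%, 2.51%, 8.24% and 8.14%. Its shares, unlike its summed levels, overlapped between the groups. Tnc was in 0.0208% and 0.0200% of GL261 cells, that is 1 cell in each library after thinning, and in 5.28%, 13.0%, 0.0687% and 0.155% of the GL261-GSCs cells. Free RNA would give 1.93%, 8.53%, 0.0117% and 0.276% in GL261-GSCs replicates 1 to 4. The thinned Tnc share lay above that value in replicates 1, 2 and 3, in replicate 3 from 5 cells with an interval of 0.0223% to 0.160%, and below it in replicate 4. Unthinned, the share in replicate 2 was 39.6% against 39.9% for free RNA. The summed Tnc level in the cells of that library was 1.75 times that in the free RNA, with up to 44 UMIs in a cell. Spp1 was in 0.333% and 0.220% against 1.31%, 0.664%, 1.59% and 0.643%, all 4 GL261-GSCs values below their free RNA values of 3.75%, 3.07%, 7.24% and 1.47%. Chil1 was in 0 cells after thinning, and taking 3 cells as the limit for a count of 0 allows at most 0.0704% of cells with a UMI in any library, which limits detection and not expression.

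For 7 of the 10 members the shares did not overlap between the groups, beside 48.8% of the 18439 genes tested in edgeR when thinned in the same way. Each of the 7 gave an exact permutation p of 0.133 (2-sided, 15 regroupings of 2 and 4 libraries) with no adjustment, the smallest this design can give. The exact permutation p was 0.267 for Lgals1 and 0.40 for Has2. No member could have passed 0.05 by this test. The unthinned shares of GL261-GSCs minus GL261 differed by -28.0 percentage points for Cd44, -88.9 for Fn1, -11.9 for Sparc, -22.9 for Has2 and 15.1 for Tnc, against -9.14, -55.2, -44.2, -4.82 and 4.596 when thinned. Unthinned, the shares of 8 members did not overlap, beside 42.7% of the same genes. Has2 was among them (41.5% and 47.1% in GL261 and 10.1% to 31.1% in GL261-GSCs), and unthinned shares follow depth, which was lowest in GL261-GSCs replicate 4.

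**Figure D3:**
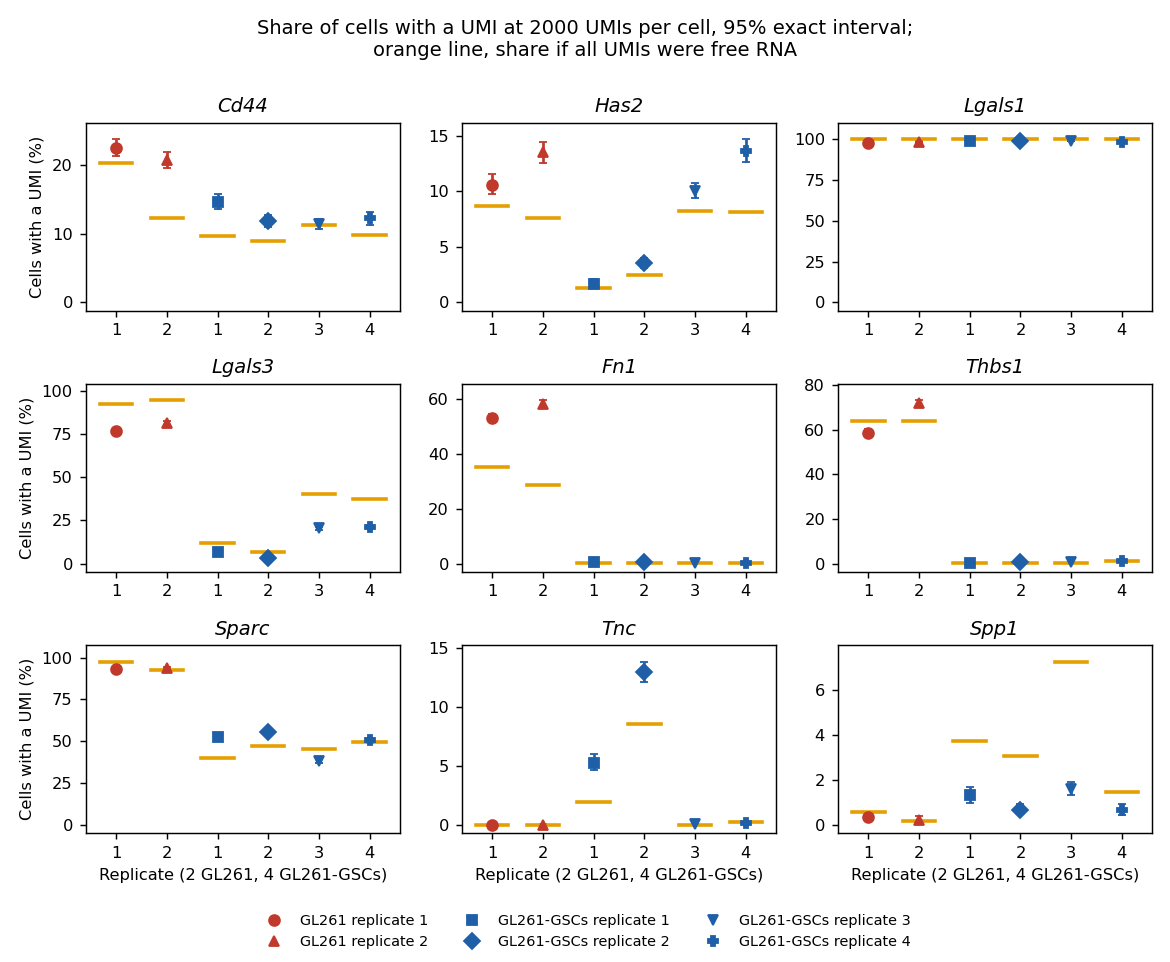
Share of called cells with a UMI of each of 9 members after thinning to 2000 UMIs per cell, with 95% exact binomial intervals, by library. Orange lines give the share if every UMI were free RNA, and points of Fn1 in GL261 and of Tnc in GL261-GSCs replicates 1 to 3 stand above it, while Lgals3 and Spp1 in the GL261-GSCs stand below it.

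The spread of UMIs over cells was described by the Fano factor, the variance of thinned UMIs over cells divided by their mean, which is 1 for counting noise alone. A low mean pulls it towards 1, so genes of different level are not ranked by it. For Cd44, with a mean of 0.126 to 0.269 UMIs per thinned cell, it was 1.04 to 1.12 in all 6 libraries. For Thbs1 it was 5.64 and 6.76 in GL261, and for Fn1 2.98 and 3.11, above counting noise in both libraries. For Lgals3 the GL261 libraries gave 2.13 and 1.93, and GL261-GSCs replicates 1 to 4 gave 6.82, 2.81, 4.598 and 3.69. Spp1 reached 13.9, 17.6 and 11.4 in GL261-GSCs replicates 1 to 3.

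Spp1 was carried by very few cells. Cells with at least 10 Spp1 UMIs numbered 2 and 4 in the GL261 libraries, while GL261-GSCs replicates 1 to 4 held 19, 11, 23 and 2. They held 76.8%, 80.6%, 64.3% and 15.3% of the Spp1 UMIs of GL261-GSCs replicates 1 to 4, and up to 332 UMIs in a cell. In GL261 they held 31.9% and 77.4%. The 10 richest cells alone held 40.3% to 87.2% of all Spp1 UMIs of a library. The Spp1 level of a library therefore rests on a handful of cells, and the spread between libraries carries that sampling.

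The genes richest in the 55 Spp1-rich GL261-GSCs cells were read by ratio of level to the other cells, among genes with at least 50 UMIs in them and a UMI in at least 25% of them. These cells were chosen after the values were seen, and the ratios have no test. The 6 with the highest ratio on the 4 libraries pooled are named, and the values by library are for 19, 11, 23 and 2 such cells in replicates 1 to 4. Il11, a cytokine of the interleukin-6 family, had a UMI in 22 of the 55 cells and was 27.2-, 37.3-, 16.8- and 19.5-fold richer in them. Cd68, a lysosomal glycoprotein, was 8.54-, 31.4-, 10.003- and 5.33-fold richer. Ctsl, a lysosomal protease, was 8.91-, 5.79-, 7.26- and 9.63-fold richer. Il11, Cd68 and Ctsl were thus richer in all 4 libraries. Nupr1, a stress-response gene, was 25.05-, 23.99-, 7.13- and 9.86-fold richer, but 1 cell held 84 of its 229 UMIs. Atf3, a stress-induced transcription factor, was 4.15-, 23.5- and 4.98-fold richer in replicates 1 to 3 and had 0 UMIs in the 2 cells of replicate 4, and 1 cell held 84 of its 199 UMIs. Acod1, the itaconate-making enzyme known from activated macrophages, was 10.5-, 0.835- and 12.9-fold as high in replicates 1 to 3, with 0 UMIs in the cells of replicate 4. Acod1 had a UMI in 19 of the 55 cells. Of the 10 microglia and macrophage markers, Cd68 had 129 UMIs in these cells and Tmem119 had 1, and Ptprc, Csf1r, Cx3cr1, P2ry12, Aif1, Itgam, C1qa and C1qb were at 0. The median depth of these cells was 17129, 14497, 10688 and 15012 UMIs in replicates 1 to 4, against 15362, 11883, 10637 and 6668 in the other cells. Doublets were not removed, and their part was not tested.

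Lgals3 showed a similar unevenness in the GL261-GSCs. Cells with at least 10 Lgals3 UMIs were 62.6% and 63.0% of cells in GL261, and 43, 30, 451 and 173 cells in GL261-GSCs replicates 1 to 4, or 1.01%, 0.511%, 6.20% and 3.83%. They held 31.7%, 40.4%, 61.1% and 46.6% of the Lgals3 UMIs of those libraries. Of the 697 Lgals3-rich cells of the GL261-GSCs, 451 and 173 came from replicates 3 and 4, so ratios are given within libraries. The 11 genes with the highest ratio on the 4 libraries pooled, under the same limits on UMIs and cells, were Fam110c, Cd68, Mt3, Gadd45b, S100a6, Ecm1, Gpnmb, Klf4, Eps8, Anxa1 and Itpk1, in that order. Fam110c was 19.3-, 22.7-, 6.94- and 7.57-fold richer in replicates 1 to 4. Over GL261-GSCs replicates 1 to 4, Mt3, a metallothionein, was 6.18- to 16.01-fold richer in these cells and S100a6, a calcium-binding protein, 3.73- to 12.6-fold. Gadd45b, a stress-induced gene, was 3.54- to 10.97-fold richer, Ecm1, a secreted matrix protein, 3.34- to 15.1-fold, Eps8, an actin regulator, 2.41- to 6.40-fold and Itpk1, an inositol phosphate kinase, 3.35- to 8.94-fold. Klf4, a transcription factor of epithelial and stem cells, was 4.47-, 9.81-, 2.96- and 2.74-fold richer, from 15, 10, 229 and 91 UMIs. Anxa1, an annexin, was 4.23-, 2.75-, 6.12- and 3.57-fold richer.

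Gpnmb, a lysosomal and surface glycoprotein, was 10.3-, 14.99-, 3.62- and 3.85-fold richer in the Lgals3-rich cells of GL261-GSCs replicates 1 to 4, and 0.983- and 1.003-fold in GL261. Cd68 was 11.7-, 30.9-, 8.22- and 6.40-fold richer against 1.70- and 1.51-fold. The same 10-UMI limit takes most GL261 cells and few GL261-GSCs cells, so the ratios of the groups are set side by side only. Ptprc, Csf1r, P2ry12, Aif1, Itgam, C1qa and C1qb were at 0 in the 697 cells, Cx3cr1 had 2 UMIs and Tmem119 had 3. Their median depth was above that of the other cells in each GL261-GSCs library, as in replicate 4 with 10376 against 6478 UMIs, and its part was not tested.

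**Figure D4:**
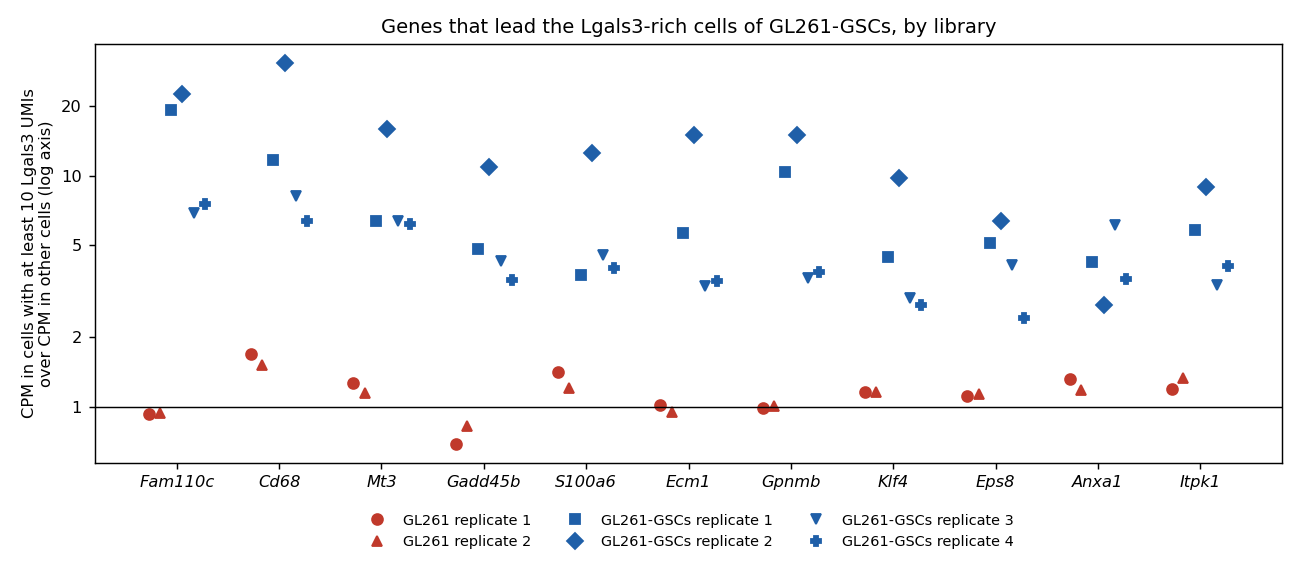
Level of 11 genes in cells with at least 10 Lgals3 UMIs over their level in the other cells of the same library, on a log axis. Red GL261 points stay between 0.689 and 1.70, and blue GL261-GSCs points lie higher for each of the 11 genes, with Gpnmb at 3.62 to 14.99. The genes were chosen for their high ratio in the GL261-GSCs, so the choice itself favours this difference.

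Cells with a Cd44 UMI after thinning were compared with the rest of their library, as a description without a test. Lgals1 was at 0.86 to 0.97 of the level of the other cells in all 6 libraries. Fn1 stood at 1.22 and 1.19 and Thbs1 at 1.15 and 1.22 in GL261, where both are abundant. Spp1 stood at 3.15, 1.38, 2.66 and 1.79 in the Cd44-positive cells of GL261-GSCs replicates 1 to 4, and at 0.528 and 0.260 in GL261, from 7 to 83 Spp1 UMIs in a GL261-GSCs library and 4 and 3 in GL261. In GL261-GSCs replicate 3, 22 cells held both Cd44 and Spp1 against 13.2 expected from the shares, a ratio of 1.67. The other libraries had too few cells with Spp1 for such a count. Lgals3 stood at 1.70, 1.74, 1.44 and 0.896 in the GL261-GSCs and at 0.931 and 0.915 in GL261. Counted in cells rather than UMIs, 41 cells of GL261-GSCs replicate 1 held both Cd44 and Lgals3 against 41.3 expected from the shares, a ratio of 0.994, with 1.23, 1.14 and 1.08 in replicates 2 to 4. The UMI ratio and the cell ratio thus lay on different sides of 1 in replicates 1 and 4. Sparc stood at 0.966 and 0.996 in GL261 and at 1.04, 1.16, 1.28 and 1.12 in GL261-GSCs replicates 1 to 4. Has2 stood at 1.16 and 1.06 in GL261 and at 0.415, 1.19, 1.32 and 1.20 in GL261-GSCs replicates 1 to 4. The value of replicate 1 came from 5 Has2 UMIs in its Cd44-positive cells. Tnc stood at 1.82 and 1.40 in GL261-GSCs replicates 1 and 2 and had too few UMIs in the other libraries. No member was above 1 in all 6 libraries among the 5 with a ratio in each. Thbs1, outside these 5, had too few UMIs in GL261-GSCs replicate 1. It stood at 1.33, 1.75 and 1.24 in replicates 2 to 4, from 5, 13 and 9 Thbs1 UMIs in the Cd44-positive cells.

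The members were also compared between cells rich in G2/M transcripts and the others of their library. The 20% of cells with the highest share of UMIs in 15 G2/M genes (such as Mki67, Top2a and Ccnb1) were set against the rest, for the 8 members with at least 20 UMIs in every library. Lgals3 was lower in the G2/M-high cells of 6 of 6 libraries, with log2 ratios of -0.34 and -0.35 in the GL261 libraries, -0.61, -1.37, -1.29 and -1.09 in the GL261-GSCs libraries, and a mean of -0.84 ± 0.46 (SD, n = 6). Lgals1 was lower in 6 of 6 by -0.12 ± 0.10 (SD, n = 6) and Sparc in 6 of 6 by -0.15 ± 0.20. The Sparc value was -0.0142 with the 10% of cells highest in G2/M genes, and -0.07 without GL261-GSCs replicate 4. Cd44 was higher in 6 of 6 by 0.13 ± 0.06. Each of these 4 gave an exact sign-flip permutation p of 0.0312 over 6 libraries, the smallest possible, and 0.0834 after Benjamini-Hochberg adjustment over 13106 genes with at least 20 UMIs in every library. So 0 members passed 0.05, and no gene could have, since the smallest possible p was adjusted to 0.0834. Before adjustment 4 of 8 members had a sign-flip p under 0.05, beside 37.5% of those genes (15.7% higher and 21.8% lower in G2/M-high cells), a share not far from that of the members.

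Has2 was higher in the G2/M-high cells of 5 of 6 libraries, at 0.76, 0.66, 0.82, 0.70 and 0.69, and stood at -0.01 in GL261-GSCs replicate 4, the shallowest library (exact permutation p = 0.0625, adjusted 0.132 over the same genes). Thbs1 was at -0.10 and 0.02 in GL261 and at 1.42, 1.22, 1.05 and 0.73 in the GL261-GSCs, where its level was near 0 (exact permutation p = 0.0938 over all 6, adjusted 0.178). Whether the 2 groups differ in that ratio was not tested. Fn1 and Spp1 were of mixed sign. G2/M-high cells were deeper in every library, as with 16679 against 15216 median UMIs in GL261 replicate 1, and the ratios are of CPM.

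**Figure D5:**
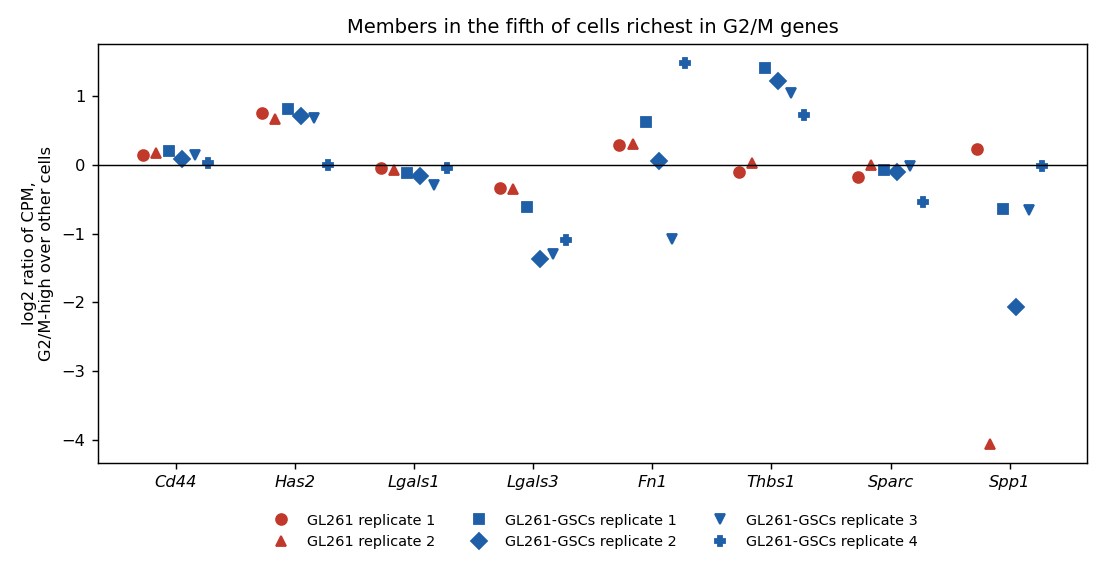
Log2 ratio of the level of 8 members in the 20% of cells richest in G2/M genes over the other cells, by library. Lgals3 lies below 0 in all 6 libraries (-1.37 to -0.34), Cd44 just above 0 in all 6, and Has2 above 0 in 5.

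The genes around the members were read from lists of other pathway genes, whose counts stand beside 29.9% called over all genes tested, 14.1% lower and 15.8% higher. Of 13 tested hyaluronan genes besides the members, 4 were lower, 1 was higher and 8 were not called, a share not far from that of all genes, with a median log2 fold change of -0.38. Ugdh, which makes the UDP-glucuronate that hyaluronan synthases use, went from 240 ± 6.72 CPM (SD, n = 2) to 110 ± 30.9 (SD, n = 4), -1.12 on the log2 scale (edgeR adjusted p = 0.0169). The others called, named after their values were seen, were Hyal1, Stab1 and Hapln4, lower, and Hapln2, higher, all at 5.92 CPM or below in the mean of each group. Hmmr, the other main hyaluronan receptor, stood at 130 and 120 CPM (-0.11, edgeR adjusted p = 0.615). Among 13 tested partners of CD44, 4 were lower and 2 higher, the latter near the 15.8% of all genes. Msn, the membrane-cytoskeleton linker moesin that binds the CD44 tail, went from 338 ± 23.4 to 110 ± 3.18 CPM (-1.61, edgeR adjusted p = 0.000186). Mmp14, a membrane protease that can shed CD44, went from 51.0 ± 1.36 to 13.1 ± 8.14 CPM (-1.95, edgeR adjusted p = 0.0347). In the opposite direction, Itga4, an integrin subunit that binds fibronectin and osteopontin, went from 89.2 ± 0.666 to 1155 ± 215 CPM (3.69, edgeR adjusted p = 0.000159). The cytoskeletal adaptor Ank2 rose by 1.03 on the log2 scale (edgeR adjusted p = 0.0401). The other partners that fell, outside the naming rule, were the tetraspanin Cd9 (-1.105, edgeR adjusted p = 0.00229) and Esrp2, a splicing regulator of CD44 (-2.89, edgeR adjusted p = 0.00942). Esrp2 was low throughout, with means of 1.88 CPM for GL261 and 0.250 for GL261-GSCs. Esrp1, on the same list, was not tested. No Esrp1 UMI was found in either GL261 library, while GL261-GSCs replicates 1 to 4 gave 173, 2, 0 and 0.

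Of 7 other galectin-related genes tested, 3 were lower and 0 higher, with a median of -0.90. Lgals3bp, a secreted glycoprotein that binds galectin-3, went from 135 ± 49.8 (SD, n = 2) to 26.5 ± 5.34 CPM (SD, n = 4), -2.35 on the log2 scale (edgeR adjusted p = 0.00104). Lgals9 went from 186 ± 23.0 to 66.7 ± 24.6 CPM (-1.48, edgeR adjusted p = 0.0107). The third was Lgals2, present at 1.55 CPM in GL261 (-4.17, edgeR adjusted p = 0.000627).

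Among 15 other matricellular genes tested, 5 rose and 5 fell, with a median of 0.63. Ctgf and Cyr61, which encode CCN proteins induced by serum and mechanical tension, went from 110 ± 2.14 to 0.446 ± 0.350 CPM (-7.93, edgeR adjusted p = 0.000537) and from 1148 ± 19.5 to 12.5 ± 2.71 CPM (-6.52, edgeR adjusted p = 2.6e-05). The 2 rises that the naming rule picked were relatives of SPARC. Sparcl1 went from 49.9 ± 6.43 to 858 ± 124 CPM (4.10, edgeR adjusted p = 9.6e-05), and Smoc1 from 5.30 ± 3.79 to 198 ± 79.3 CPM (5.22, edgeR adjusted p = 0.00221). The relatives Smoc2, Spock1, Spock2 and Spock3 had too few UMIs to be tested, at 0 to 0.157 CPM in the mean of each group. The others called, named after their values were seen, were Tnr, the tenascin of the brain matrix (6.37), Thbs2 (2.09) and Tnxb (1.098), higher, and Wisp1 (-5.39), Fbln5 (-3.38) and Comp (-2.43), lower. Thbs2 and Comp, relatives of Thbs1, thus moved in opposite directions.

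Of 14 matrix receptor genes tested, 4 rose and 5 fell, with a median of -0.25. Itgb1, the β1 integrin subunit shared by most fibronectin receptors, went from 1593 ± 113 to 635 ± 162 CPM (-1.33, edgeR adjusted p = 0.00671). Sdc4, the syndecan of focal adhesions, went from 90.5 ± 2.87 to 2.17 ± 1.24 CPM (-5.37, edgeR adjusted p = 0.000408), while Itga8 went from 5.25 ± 1.23 to 45.5 ± 14.0 CPM (3.12, edgeR adjusted p = 0.00125). Besides Itga4 and these, Itga9 (3.73) and Itgb8 (1.46) rose and Itgb3 (-1.95), Itgb6 (182 UMIs in all of GL261 and 3 in all GL261-GSCs) and Tmem219 (-0.49) fell, named after their values were seen. Of 14 other genes of fibronectin assembly and elastic fibres, 5 rose and 5 fell, with a median of 0.21. Tgm2, a transglutaminase that cross-links fibronectin, went from 17.3 ± 0.917 to 0.614 ± 0.135 CPM (-4.82, edgeR adjusted p = 9.4e-05). Efemp2 fell by 1.87, Fbn2 rose by 3.32 and Emilin1 rose by 1.57 on the log2 scale. The others called, named after their values were seen, were Fbln1 (6.26), Ltbp1 (4.32) and Mfap2 (0.82), higher, and Loxl2 (-4.18), Fbln2 (33 UMIs in all of GL261 and 0 in all GL261-GSCs) and Loxl1 (100 and 1 UMIs), lower.

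Of 20 regulators and targets tied to the mesenchymal state, 11 fell, 2 rose and 7 were not called, with a median of -1.69. The 7 not called, named after their values were seen, were Stat3 (0.28), Bhlhe40 (0.84), Cebpb (-0.28), Cebpd (-0.74), Yap1 (-0.48), Il6st (-0.33) and Relb (-0.27). Tgfb2, a TGF-β ligand, went from 40.8 ± 10.2 to 0.466 ± 0.403 CPM (-6.40, edgeR adjusted p = 0.000781). Receptors of this list went both ways. Met, the hepatocyte growth factor receptor, went from 7.73 ± 0.191 to 50.2 ± 6.33 CPM (2.70, edgeR adjusted p = 0.000169) and Tgfbr2, a TGF-β receptor, from 18.8 ± 0.395 to 64.4 ± 10.3 CPM (1.78, edgeR adjusted p = 0.000899). The receptors Axl (-2.60), Osmr (-2.45) and Plaur (-2.79), named after their values were seen, were called lower.

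Over all these lists 55 genes besides the members were called, and all 55 had the same direction by edgeR both without GL261-GSCs replicates 1 and 2 and without replicates 3 and 4. The call held in both fits for 53. Without replicates 3 and 4, Fbln1 stood at 3.64 (edgeR adjusted p = 0.0513) against 7.18 without replicates 1 and 2, and Ank2 at 0.77 (edgeR adjusted p = 0.0677). The fold of 14 genes moved by over 1.5 times in one of the fits. Mmp14 stood at -3.03 without replicates 1 and 2 and at -1.33 without replicates 3 and 4, Ctgf at -9.65 and -7.26, Tgfb2 at -7.65 and -5.77, Sdc4 at -5.95 and -4.92, and Axl at -2.09 and -3.33. The other 8, besides Fbln1, were Comp, Esrp2, Fbln5, Fosl1, Hapln2, Itgb6, Loxl1 and Wisp1.

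The genes whose profile over the 6 libraries was most like that of each member were found among 9494 genes, by the root mean square difference of centred log2 CPM. The measure describes shape over 6 libraries and says nothing of shared function. For Cd44 they were Hexim1 (0.0633), Uap1 (0.0753) and Rmnd5b (0.0829), and Uap1 makes the UDP-N-acetylglucosamine that hyaluronan also needs. For Has2 the closest was Tmem2 (0.284), a surface hyaluronidase, at 26.2 and 28.5 CPM in the GL261 libraries and 4.15, 10.1, 23.9 and 27.8 CPM across GL261-GSCs replicates 1 to 4, followed by Kitl (0.299) and Afap1l2 (0.314). Tmem2 thus had the same low values in replicates 1 and 2 and near-GL261 values in replicates 3 and 4 as Has2. For Lgals3 the closest was Klf4 (0.350), at 149 and 160 CPM in GL261 and 4.49, 2.72, 14.7 and 17.8 in the GL261-GSCs. Within each GL261-GSCs library Klf4 was also 2.74- to 9.81-fold higher in the Lgals3-rich cells than in the others, a ratio that had no test.

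For Lgals1 the closest were Prdx4 (0.0268), Apex1 (0.0370) and Snrpc (0.0392), all level between the groups. For Sparc they were Pls3 (0.191), Dlx1 (0.195) and Slc39a13 (0.201), and for Fn1 Clcf1 (0.520), Nrp1 (0.570) and Sod3 (0.602). For Thbs1 they were Tagln (0.728), Col12a1 (0.750) and Klhdc8a (0.769). Spp1 had 2210408F21Rik (0.555), C1ql1 (0.560) and Qdpr (0.568). No gene came near the profile of Tnc: the closest was Abcb4 (1.64), at 0.326 and 0.0994 CPM in GL261 and 34.4, 36.0, 7.55 and 4.395 in the GL261-GSCs.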

How the data were processed

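The authors deposited raw UMI counts for every barcode, unfiltered; Cell Ranger 4 made the matrices, per the file headers, and the build was mm10, per the submitters' processing notes (annotation release not given in the sources used here). The labels name cells or nuclei, without saying which were loaded. A barcode was called a cell if its UMIs reached 10% of the 99th percentile among the 3000 largest barcodes, with at least 500 genes and under 10% mitochondrial UMIs; no doublet caller was run. Counts were summed per library and fitted with edgeR 4.0.16 (R 4.3.3, TMM, filterByExpr, no block, 2-sided). The SE is the absolute log2 fold change over the square root of F. DESeq2 1.42.0 and limma 3.58.1 were alternatives; the tests were tested on simulated data. Exact permutation tests and exact binomial 95% intervals used scipy 1.17.1. G2/M p-values are given adjusted over all 13106 eligible genes, not over the members as first planned. Of 54446 identifiers, 54409 matched GENCODE M21 without version; promoters came from RefSeq (GRCm38.p6).

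Members, gene lists and alternatives were chosen with earlier results of these data known. All 10 members were named. From each other list the rule named the 2 largest rises and 2 largest falls among called genes with at least 10 CPM in a group, and for each member the 3 closest profiles; Hmmr and others so marked were named after their values were seen. A gene that the rule picked is not reported here.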

Additional observations from a re-analysis of the deposited data

How the results depend on the processing

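Cd44, Fn1, Thbs1 and Sparc were called lower in edgeR, or in DESeq2 or limma-voom where those were used, in all 10 alternatives that entered all libraries and with each of the 6 libraries left out in turn. The replicate block, 1 of the 10, draws its contrast from GL261-GSCs replicates 1 and 2 alone, since numbers 3 and 4 occur in no GL261 library. Over the 10, the log2 fold change of Cd44 ranged from -1.23 to -0.79, that of Fn1 from -9.07 to -7.87, that of Thbs1 from -9.83 to -8.61 and that of Sparc from -2.53 to -1.997. Lgals3 was called in the same 10 (-5.26 to -2.19), and over the leave-one-out fits ranged from -3.80 to -2.96 and lost the call without GL261 replicate 1 (-3.37) or 2 (-3.31). Lgals1 was called in none, and its sign turned with every barcode of at least 1000 UMIs (-0.00312), in cells with no UMI of the G2/M list (-0.28) and without GL261-GSCs replicate 3 (-0.0118), with a leave-one-out range of -0.0118 to 0.15.

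Tnc, not called in the reported fit or by limma-voom (5.68, adjusted p = 0.364), passed with DESeq2 (8.01), with no gene filter (7.98), with the replicate block (8.82), without GL261-GSCs replicates 1 and 2 (2.39) and without replicates 3 and 4 (8.96), and also without replicate 3 (8.38) or 4 (8.39), with a leave-one-out range of 6.52 to 8.56. Spp1, not called by limma-voom (1.83), passed with library size scaling (2.01), DESeq2 (1.87), no filter (1.88), the block (2.09), without replicates 1 and 2 (1.70) and without 3 and 4 (2.08), with a leave-one-out range of 1.49 to 2.40. Has2, not called by limma-voom (-1.65), passed with the block (-2.69), without replicates 1 and 2 (-0.47) and without 3 and 4 (-2.62); it was -0.18 (adjusted p = 0.853) in cells with no G2/M UMI, with a leave-one-out range of -1.63 to -0.86. The members called, of 9 tested, rose from 5 to 8 with the replicate block and without either pair of GL261-GSCs libraries. Calls over all genes rose as well, from 5514 of 18439 tested to 6512 of 18439 with the block. They were 9881 of 17995 without replicates 1 and 2 and 6985 of 17540 without replicates 3 and 4. The fits without a pair leave out the spread between the pairs. The replicate number is only a shared label, and only 2 numbers are shared. Deviations of same-numbered libraries from their group means correlated at r = -0.053 and 0.116 over 9154 genes. Those of unlike-numbered libraries correlated at -0.1159 to 0.1075. With 2 GL261 libraries their deviations mirror each other, so these values cannot decide whether the number marks a pair.

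Among all genes, 5514 were called, against 2317 in the 21 to 292 cells per library with no G2/M UMI, where fewer genes were tested, 9881 without GL261-GSCs replicates 1 and 2, and 1817 to 6193 with a library left out. With library size scaling the median of all genes moved from 0.04 to 0.18, and the calls from 2920 higher and 2594 lower to 3491 and 2034. Lists are counted with their members here. In the reported fit 15 hyaluronan, 13 CD44 partner and 15 fibronectin assembly genes were tested. In cells with no G2/M UMI only 6 hyaluronan and 9 fibronectin assembly genes were tested. Counts without replicates 1 and 2 stand beside 9881 of 17995 genes called in that fit. The hyaluronan list had 6 calls, 2 in cells with no G2/M UMI, 11 without GL261-GSCs replicates 1 and 2, and 1 to 7 with a library left out. The CD44 partner list had 6, against 10 without replicates 1 and 2 and 3 to 6 with a library left out. The galectin list had 4 (2 to 5 with a library left out), the matrix receptor list 9 (4 to 10), and fibronectin assembly 11, against 6 in cells with no G2/M UMI. With thinning to 1000 UMIs, 1 member was above 1 in Cd44-positive cells of all 6 libraries. Where no cause is given, the cause was not tested. Chil1 had too few UMIs for any fit, and few cells with no G2/M UMI limit that alternative.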
